A study of Mus musculus with 11 samples.

Results

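The genes for the proteins of the cytosolic ribosome were examined as a set in intestinal epithelial cells (IECs) with and without O-GlcNAc transferase (OGT). Members were taken by name alone, as every table entry that holds a symbol of the Rpl or Rps series, Rplp0 to Rplp2 or Rpsa, without the Rps6k kinases, Rps19bp1 and symbols marked as pseudogenes by "-ps". Rps4y2, which GENCODE types as a transcribed processed pseudogene, bears no such mark and was kept. In each tissue 82 genes were found, 49 of the large and 33 of the small subunit, among 12631 named genes with expression above 0 in both genotypes for ileum and 12814 for colon. The 82 were the same genes in both tissues, lay on 19 chromosomes, and included all 46 large subunit and 31 small subunit genes listed as core subunits, with 5 paralog forms (Rpl7l1, Rpl22l1, Rpl36al, Rps27l and Rps4y2). The study compared mice aged 10 weeks that lack Ogt in the epithelium (IEC-OGT KO in the labels, Vil-Ogt KO hereafter) with wild-type mice (WT), in 3 Vil-Ogt KO and 2 WT libraries of the ileum and in 3 Vil-Ogt KO and 3 WT libraries of the colon. Villin-Cre, which acts throughout the intestinal epithelium, removed floxed Ogt, and cells were shaken off the tissue in EDTA. RNA was pooled before library construction, and the number of mice behind each library is unknown here. The tables hold 1 value for each genotype and tissue, a log2 FPKM (log2 of fragments per kilobase of transcript, scaled to the mapped fragments of the library). No spread between libraries can therefore be given, no test was made, and every difference below is Vil-Ogt KO minus WT of the authors' genotype values.

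The ribosome is built from a small subunit, which reads the mRNA, and a large subunit, which forms the peptide bond, and each protein is needed in about equal amount with the rRNA. Ribosomal protein mRNAs are among the most abundant in a cell and typically start with a terminal oligopyrimidine tract (TOP), a run of C and T at the cap through which the kinase complex mTORC1 and the protein LARP1 set their translation and stability. In the gut, crypt cells make many ribosomes while they divide. Surplus large subunit proteins, Rpl5 and Rpl11 above all, bind the p53 regulator MDM2. OGT adds a single sugar, O-GlcNAc, to nuclear and cytosolic proteins.

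Ogt itself was at log2 FPKM 1.97 in Vil-Ogt KO and 3.39 in WT ileum, and at 3.03 in Vil-Ogt KO and 5.02 in WT colon. The epithelial gene Epcam was at 9.87 in Vil-Ogt KO and 10.27 in WT ileum, and at 9.88 in Vil-Ogt KO and 10.10 in WT colon. Epithelial genes as a list were mixed. In the ileum 5 of 7, Epcam among them, had a difference below 0 and 2 above (median -0.22, from -0.77 to 1.68). In the colon 3 had a difference below 0 and 4 above (median 0.39, from -0.32 to 0.72). The ileum groups stood apart in regional identity. All 8 ileal markers were higher in Vil-Ogt KO than in WT ileum by 1.5-fold or more, as were all 7 T cell and lymphocyte markers, while 5 of 5 colonic markers and 6 of 6 genes of dividing cells were lower. The colonic carbonic anhydrase gene Car1 stood at log2 FPKM 7.41 in Vil-Ogt KO and 12.53 in WT ileum, so the WT ileum value goes against its label for this gene, and Aqp8, a colonic water channel, stood at -1.96 in Vil-Ogt KO and 6.14 in WT ileum. Mptx1, a colonic pentraxin gene, was listed at 0 in Vil-Ogt KO ileum and stood at 1.88 in WT ileum. Of the ileal markers, Lct stood at -5.28, Fgf15 at 0.85, Defa5 at 1.54 and Lyz1 at 5.79 in WT ileum. In Vil-Ogt KO ileum these stood at 1.64, 4.92, 5.88 and 9.87. By RT-qPCR of ileum tissue the paper found Lyz1 unchanged and Defa5 lower in Vil-Ogt KO, unlike these values. Fabp6 was the highest ileal marker, at 13.91 in Vil-Ogt KO and 12.02 in WT ileum. The summed FPKM of the ileal markers was 26576 in Vil-Ogt KO and 4876 in WT ileum, that of the colonic markers 260 in Vil-Ogt KO and 6291 in WT ileum, that of the T cell markers 555 in Vil-Ogt KO and 102 in WT ileum, and that of the genes of dividing cells 193 in Vil-Ogt KO and 377 in WT ileum. Of 5 stem cell genes, 5 were below 0 and 3 lower by 1.5-fold or more in Vil-Ogt KO ileum, with a summed FPKM of 80.9 in Vil-Ogt KO and 433 in WT. Among them Lgr5 stood at -2.37 in Vil-Ogt KO and 1.48 in WT ileum, and Olfm4 at 5.71 in Vil-Ogt KO and 8.57 in WT ileum. The haemoglobin entry of Hba-a1 and Hba-a2, a sign of erythrocytes, stood at 4.99 in Vil-Ogt KO and -0.17 in WT ileum, and at 5.4 in Vil-Ogt KO and 1.98 in WT colon. Every ileal difference below rests on that WT value, since no library can be left out. In the colon, 7 of 7 T cell and lymphocyte markers were lower in Vil-Ogt KO by 1.5-fold or more, opposite to the ileum, with a summed FPKM of 24.9 in Vil-Ogt KO and 60.3 in WT. Of 7 genes of dividing cells 2 were lower, with a summed FPKM of 190 in Vil-Ogt KO and 238 in WT colon, while 5 of 5 ileal markers were higher (summed FPKM 149 in Vil-Ogt KO and 33.2 in WT) and 4 of 5 colonic markers lower (625 in Vil-Ogt KO and 1623 in WT). Of 4 stem cell genes in the colon 2 were lower, with a summed FPKM of 24.3 in Vil-Ogt KO and 28.8 in WT. In RNA of mixed cells, fewer cells of a type and less RNA per cell cannot be told apart.

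The start sites of 8 members are shown because a TOP stands at the start of the mRNA, and they include members that differed most and least between genotypes. Each window runs from 10 bases before to 20 bases after the RefSeq start (build GRCm38.p6), 5′ to 3′ on the gene's strand, and capitals mark its longest run of C and T.
Rps21 (chr2:180257369-180257398, plus strand): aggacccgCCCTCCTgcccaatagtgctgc
Rpl22l1 (chr3:28805498-28805527, plus strand): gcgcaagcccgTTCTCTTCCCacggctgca
Rplp2 (chr7:141447641-141447670, plus strand): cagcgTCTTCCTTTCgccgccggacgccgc
Rps6 (chr4:86857348-86857377, minus strand): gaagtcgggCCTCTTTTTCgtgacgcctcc
Rpl27a (chr7:109519185-109519214, plus strand): cgtgagCTCCTCCCTTTTCCCTTTCTgcca
Rpl13a (chr7:45128726-45128755, minus strand): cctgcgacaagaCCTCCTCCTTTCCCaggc
Rpl7l1 (chr17:46782637-46782666, minus strand): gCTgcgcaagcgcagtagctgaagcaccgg
Rps27l (chr9:66946076-66946105, plus strand): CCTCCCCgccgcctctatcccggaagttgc
A RefSeq window was found for 61 of the 82 members. A run of at least 8 C or T on the gene's strand was present in 21 of them (34.4%), against 11.2% of 27025 promoter windows of all genes and 8.70% of 69 windows of mitochondrial ribosomal protein genes. Windows follow the annotated start, which need not be the cap site used in these cells. A run was counted anywhere in the window, so it need not be a tract at the cap. In Rpl7l1 and Rps27l the marked run lies wholly before the annotated start.

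Ribosomal protein mRNAs were far above the typical gene in all 4 groups. Their median level was log2 FPKM 9.57 in Vil-Ogt KO and 10.42 in WT ileum, and 9.77 in Vil-Ogt KO and 10.17 in WT colon. The median of all named genes was 3.18 in Vil-Ogt KO and 3.27 in WT ileum, and 3.30 in Vil-Ogt KO and 3.38 in WT colon. The 82 genes made up 10.7% of the summed FPKM of named genes in Vil-Ogt KO ileum against 18.3% in WT ileum, and 12.6% in Vil-Ogt KO colon against 16.1% in WT colon. The small subunit genes lay slightly higher than the large, with medians of 9.65 and 9.45 in Vil-Ogt KO ileum and of 10.63 and 10.35 in WT ileum. In the colon these medians were 9.83 for small and 9.64 for large subunit genes in Vil-Ogt KO, and 10.34 and 10.15 in WT. With entries that have a locus span of their own, the large minus small subunit level was 0.01 in Vil-Ogt KO colon and -0.07 in WT colon, so the order turned in Vil-Ogt KO colon. Members differed widely among themselves. Rpl41, which codes for the smallest ribosomal protein, stood highest in WT ileum at 12.25 (11.62 in Vil-Ogt KO), followed by Rps27 at 12.14 (11.34 in Vil-Ogt KO) and Rplp1 at 11.99 (10.62 in Vil-Ogt KO). Among core subunits, the lowest in WT ileum were Rps15a at 6.37 (5.24 in Vil-Ogt KO) and Rpl22, an RNA-binding protein of the large subunit, at 7.42 (6.60 in Vil-Ogt KO). Symbols marked as pseudogenes by "-ps" carry the names of 60 of the 82 members in GENCODE. How reads were split between a gene and such copies is not stated, so levels between members are uncertain to that extent. The order of the members was much alike in both genotypes, with Spearman's rho of 0.908 in ileum and 0.916 in colon across the 82 genes, which share the same libraries.

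**Figure D1:**
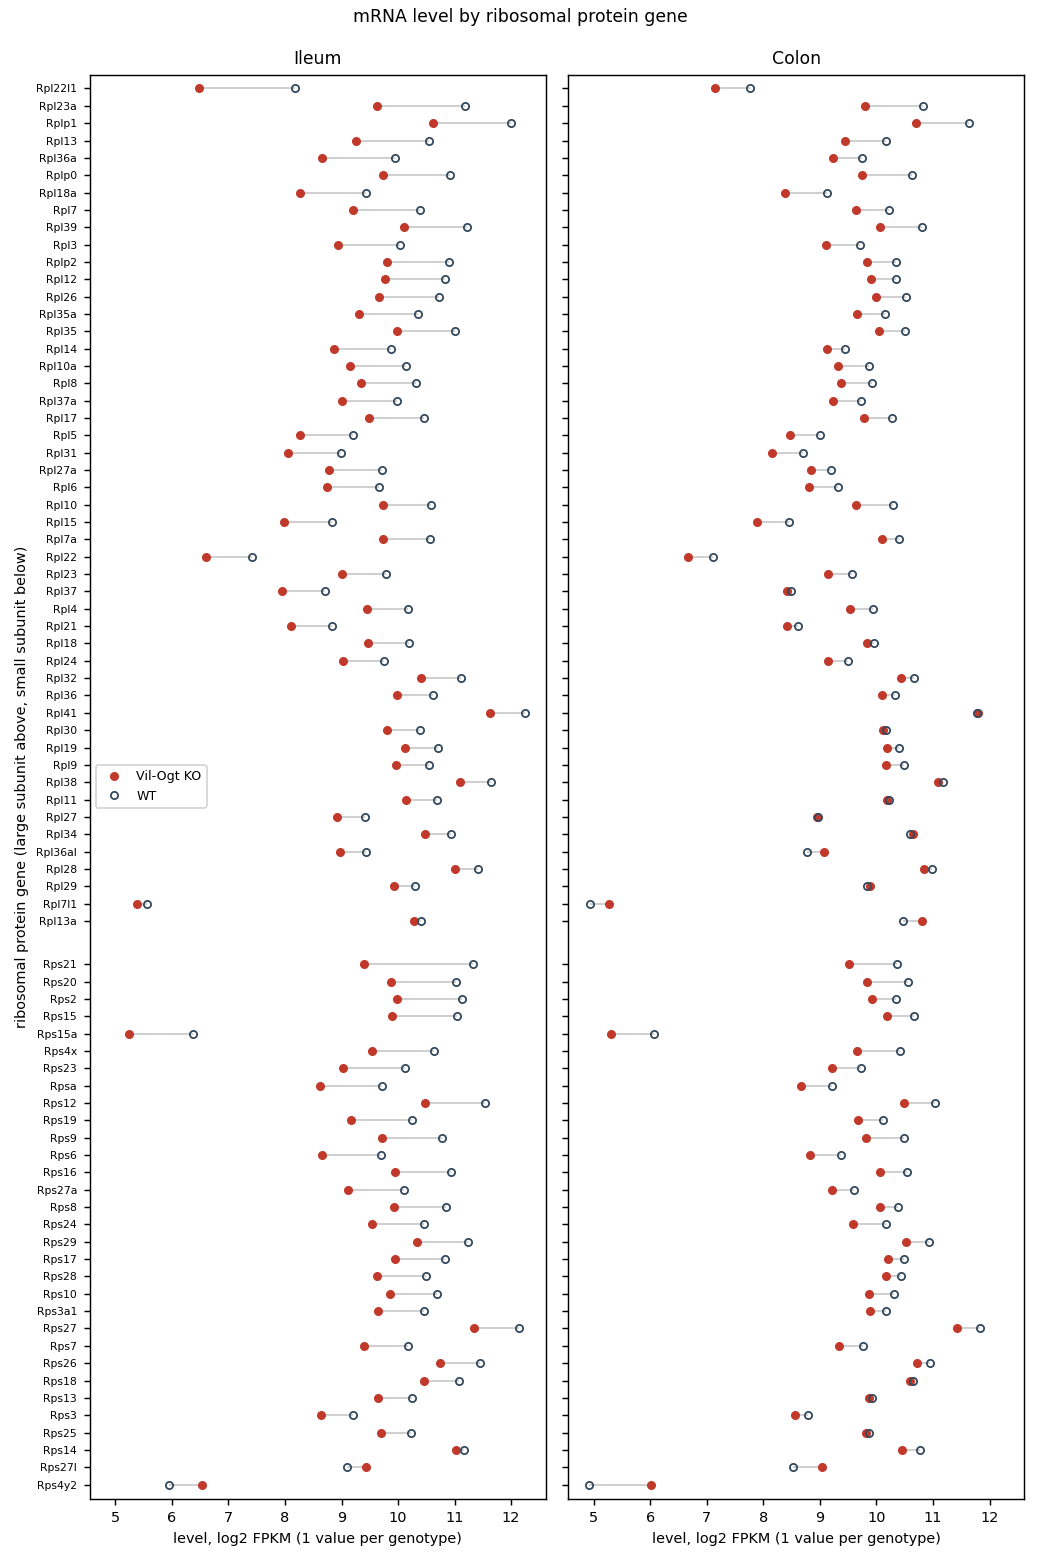
Level of 80 of the 82 genes in log2 FPKM (horizontal axis) in the ileum (left) and the colon (right), with filled red points for Vil-Ogt KO and open points for WT, 1 value per genotype; genes run down the page by subunit and by their ileal difference. In the ileum the Vil-Ogt KO point lies left of the WT point for 78 of the genes drawn, and in the colon for 72.

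In the ileum, ribosomal protein mRNAs were lower without Ogt almost throughout. The difference was below 0 in 80 of 82 members, where 52.9% of all named genes were below 0, and the median was -0.91 against -0.07 for all named genes, a ratio of 0.532 of Vil-Ogt KO over WT. By 1.5-fold or more, 65 members were lower and 1 was higher, against 28.0% and 23.5% of all named genes. Other genes of high abundance were split more evenly. Of 301 other named genes with a mean log2 FPKM of at least 8, 21.3% were lower and 26.9% higher by 1.5-fold or more, with a median of 0.11. By 2-fold or more, 29 members were lower and 0 higher, against 15.2% and 15.3% of all named genes. The subunits had similar values. The median was -0.86 for the 49 large subunit genes, all of them below 0, and -0.92 for the 33 small subunit genes, 31 of them below 0. The quartiles of the 82 differences were -1.07 and -0.63. The ileal and T cell markers and the haemoglobin entry given above were higher in Vil-Ogt KO ileum. The colonic markers, stem cell genes and genes of dividing cells were lower. Alas2, another gene of the erythrocyte list, stood at -1.11 in Vil-Ogt KO and -1.2 in WT ileum. The part of these marker groups in the result was not tested.

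In the colon the shift had the same direction and was smaller. The difference was below 0 in 73 of 82 members, against 53.0% of all named genes, and the median was -0.42 against -0.04 for all named genes, a ratio of 0.747. By 1.5-fold or more, 16 members were lower and 1 higher, against 18.2% and 14.0% of all named genes, so the count at this fold was near the background although the median was not. Of 287 other named genes with a mean log2 FPKM of at least 8, 8.36% were lower and 12.2% higher by 1.5-fold or more, with a median of 0.01. By 2-fold or more 1 member, Rpl23a, was lower and 1, Rps4y2, higher, against 8.37% and 7.26% of all named genes. The large subunit had a median of -0.44 and the small subunit of -0.42. The part of the regional, T cell, dividing cell, stem cell and erythrocyte markers in the colonic result was not tested.

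**Figure D2:**
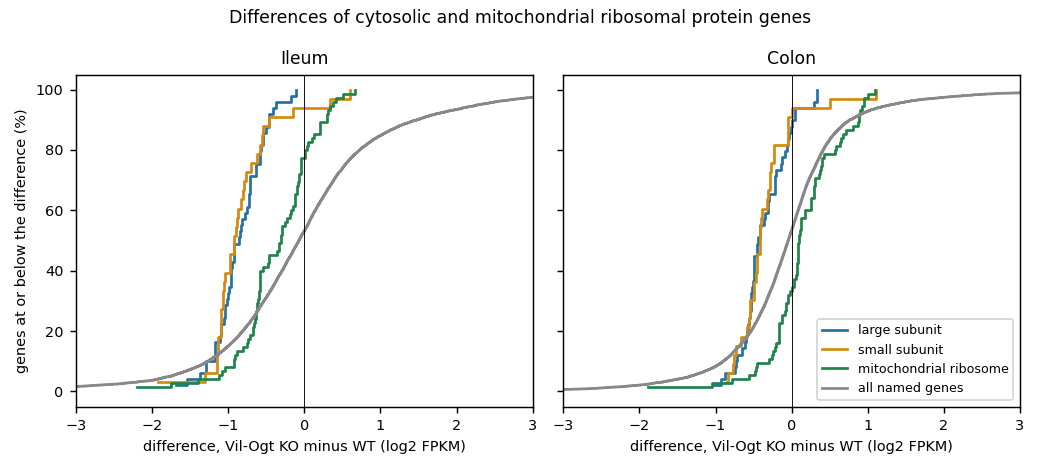
Cumulative share of genes in percent (vertical axis) at or below a given difference of Vil-Ogt KO minus WT in log2 FPKM (horizontal axis, cropped at -3 and 3), for the large subunit, the small subunit, mitochondrial ribosomal proteins and all named genes in the ileum (left) and colon (right). The curves of the subunits run together and cross 50% left of all named genes, with medians of -0.86 and -0.92 in ileum and -0.44 and -0.42 in colon.

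Both tissues ranked the members in much the same order. Across the 82 genes the ileal and colonic differences had a Pearson's r of 0.896 and a Spearman's rho of 0.886, and across the 77 core subunits an r of 0.859 and a rho of 0.868. Over 11759 other named genes found in both tables, not matched to the members in level, r was 0.565 and rho 0.559. These are descriptions over genes that share libraries, and whether ileum and colon came from the same mice is not stated. All 16 members lower by 1.5-fold or more in the colon were also so in the ileum, while 49 of the 65 in the ileum were within 1.5-fold in the colon. The shared genes were thus 100% of the colonic and 24.6% of the ileal list, against 67.7% and 41.5% for the 11759 other named genes. These shares depend on the list sizes. In the ileum 65 of 82 members and 3272 of 11759 other named genes were lower, and in the colon 16 and 2003. With 16 members lower in the colon, 24.6% was the most that could be shared. The shares of members and other genes can therefore not be compared directly. The ileal difference was the lower one in 81 of 82 members, by a median of -0.49, and in 54% of the other named genes, with a median of -0.07. Rps14, a protein of the small subunit platform, was the exception, at -0.15 in ileum and -0.32 in colon. Its colonic entry has a longer locus span than its ileal one, and 2 entries share that colonic span. The tissues were normalized separately, so levels across them are set side by side only. In WT, 81 of 82 members stood higher in the ileum than in the colon, by a median of 0.35, as did 43.9% of the other named genes (median -0.08). In Vil-Ogt KO, 15 of 82 did and the median was -0.11, as did 41.5% of the other named genes (median -0.12).

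**Figure D3:**
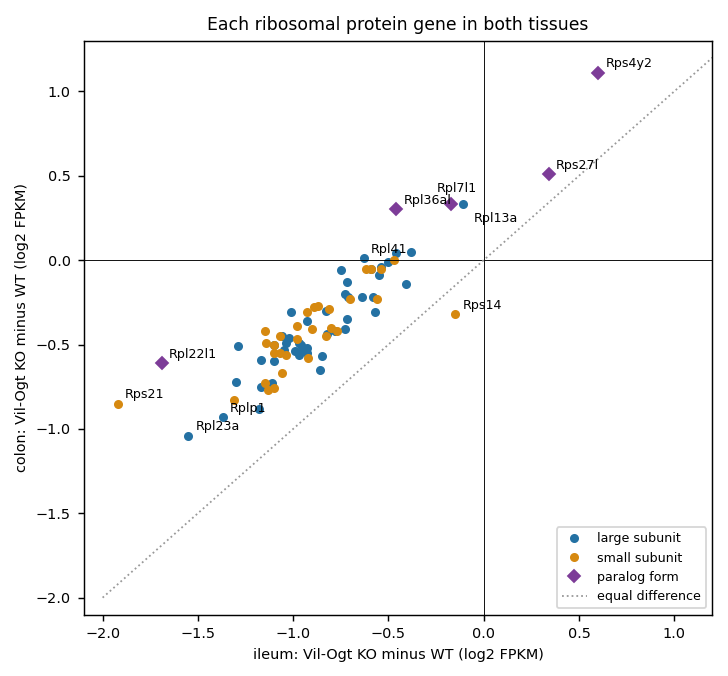
Difference of Vil-Ogt KO minus WT in log2 FPKM for each of the 82 genes in the ileum (horizontal axis) and colon (vertical axis), with large subunit, small subunit and paralog forms marked and a dotted line of equal difference. All points but Rps14 lie above the line, 73 lie below 0 in both tissues, and Rps27l and Rps4y2 lie above 0 in both.

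Among large subunit genes the P stalk, which recruits the elongation factors to the ribosome, was below 0 in all 3 genes in both tissues, by 1.5-fold or more for 3 of 3 in ileum and 2 of 3 in colon. Its base Rplp0 stood at log2 FPKM 9.73 in Vil-Ogt KO and 10.91 in WT ileum, and at 9.75 in Vil-Ogt KO and 10.63 in WT colon. Rplp1 stood at 10.62 in Vil-Ogt KO and 11.99 in WT ileum, and at 10.70 in Vil-Ogt KO and 11.63 in WT colon. For its partner Rplp2 the levels were 9.80 in Vil-Ogt KO and 10.90 in WT ileum, and 9.84 in Vil-Ogt KO and 10.34 in WT colon. Their differences of -1.18, -1.37 and -1.10 in ileum all passed 2-fold, and in the colon they were -0.88, -0.93 and -0.50. Rpl23a, at the rim of the tunnel where the new peptide leaves, had the lowest difference of any core large subunit gene in both tissues. It stood at 9.63 in Vil-Ogt KO and 11.18 in WT ileum, and at 9.79 in Vil-Ogt KO and 10.83 in WT colon. Its colonic entry also names the small nucleolar RNA gene Snord42b. Rpl39, which lines the same tunnel, differed by -1.11 in ileum and -0.73 in colon, and Rpl13 by -1.3 and -0.72. Rpl3, which reaches towards the catalytic centre, and Rpl4, which lines the tunnel, differed by -1.10 and -0.73 in ileum and by -0.60 and -0.41 in colon.

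Rpl5 and Rpl11, which enter the large subunit together with a small rRNA, differed unequally between genotypes. Rpl5 stood at log2 FPKM 8.26 in Vil-Ogt KO and 9.21 in WT ileum, and at 8.47 in Vil-Ogt KO and 9.0 in WT colon. Rpl11 stood at 10.14 in Vil-Ogt KO and 10.68 in WT ileum, and at 10.19 in Vil-Ogt KO and 10.23 in WT colon. Rpl5 was thus lower by 1.5-fold or more in the ileum, at -0.95, and Rpl11 was not, at -0.54, and in the colon the differences were -0.53 and -0.04. Some other large subunit genes were within 1.5-fold in both tissues, such as Rpl28, at -0.41 in ileum and -0.14 in colon, Rpl29, at -0.38 and 0.05, and Rpl34, at -0.46 and 0.04, whose entry also names the pseudogene Rpl34-ps1. Rpl41, the most abundant member in WT ileum, differed by -0.63 in ileum and by 0.01 in colon, and Rpl38, also among the most abundant, by -0.55 and -0.09. Rpl30, whose entry also names Gm12191, differed by -0.59 and -0.05.

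Of the small subunit genes, Rps21 had the lowest difference of all members in the ileum. It stood at log2 FPKM 9.40 in Vil-Ogt KO and 11.32 in WT ileum, a ratio of 0.264, and at 9.51 in Vil-Ogt KO and 10.36 in WT colon, a ratio of 0.555. The ileal entry also names the microRNA gene Mir3091 and the colonic one does not. Rps6, the classic substrate of the S6 kinases, stood at 8.66 in Vil-Ogt KO and 9.70 in WT ileum, and at 8.82 in Vil-Ogt KO and 9.38 in WT colon. Rpsa, also known as a laminin receptor, differed by -1.10 in ileum and -0.55 in colon, and Rps15a, the least abundant core member, by -1.13 and -0.77. Rps12, after which 24 pseudogenes are named, differed by -1.07 and -0.55. Rps3, at the entry of the mRNA channel, was nearer to 0 at -0.56 and -0.23. Rps15 differed by -1.14 in ileum and -0.49 in colon, in a locus span that 43 entries share in the ileum and 52 in the colon. Rps14 was at 11.02 in Vil-Ogt KO and 11.17 in WT ileum, and at 10.45 in Vil-Ogt KO and 10.77 in WT colon.

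Some ribosomal proteins are made as a fusion with ubiquitin or a ubiquitin-like protein and bear other names. Rps27a, a fusion that the naming rule takes, stood at log2 FPKM 9.12 in Vil-Ogt KO and 10.10 in WT ileum, and at 9.22 in Vil-Ogt KO and 9.61 in WT colon. Fau, whose ubiquitin-like fusion yields a small subunit protein, had differences above 0, with 10.70 in Vil-Ogt KO and 10.49 in WT ileum, and 10.63 in Vil-Ogt KO and 10.40 in WT colon. Gnb2l1, which codes for the small subunit scaffold RACK1, differed by -0.88 in ileum and -0.51 in colon.

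The paralog forms differed among themselves in direction. Rps27l, a close copy of Rps27 and known as a p53 target in human cells, stood at log2 FPKM 9.43 in Vil-Ogt KO and 9.09 in WT ileum, and at 9.03 in Vil-Ogt KO and 8.52 in WT colon. Rps27 itself stood at 11.34 in Vil-Ogt KO and 12.14 in WT ileum, and at 11.43 in Vil-Ogt KO and 11.83 in WT colon. The copy was thus higher and the parent lower without Ogt in both tissues, by 0.34 and -0.80 in ileum and by 0.51 and -0.40 in colon. Only the ileal value of Rps27 passed 1.5-fold. Rps4y2, typed by GENCODE as a transcribed processed pseudogene, stood at 6.54 in Vil-Ogt KO and 5.94 in WT ileum. In the colon it stood at 6.02 in Vil-Ogt KO and 4.91 in WT. It lies in a locus span shared by 3 entries in each tissue. Its parent Rps4x differed by -1.10 and -0.76. Rpl22l1 was lower without Ogt in both tissues. It is the paralog that Rpl22 represses in the mouse, and it stood at 6.48 in Vil-Ogt KO and 8.17 in WT ileum, and at 7.15 in Vil-Ogt KO and 7.76 in WT colon, lower by more than Rpl22 was (-0.82 in ileum and -0.44 in colon).

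Rpl36al, nearly identical to Rpl36a in protein, differed by -0.46 in ileum and 0.30 in colon, against -1.29 and -0.51 for Rpl36a. Rpl7l1, a relative of Rpl7 at low level, differed by -0.17 and 0.33, against -1.17 and -0.59 for Rpl7. In the ileum 77 of 77 core subunits were below 0, and in the colon 72 were below 0, 4 above and 1 at 0. Of those above 0 in the colon, Rpl13a was the highest at 0.33, with 10.80 in Vil-Ogt KO and 10.47 in WT colon. In the ileum it stood at 10.29 in Vil-Ogt KO and 10.40 in WT, the core value nearest to 0. Rpl13a serves outside the ribosome in the interferon-driven silencing of inflammatory mRNAs. Its entry also names Mir5121 and Snord33, and 4 small nucleolar RNA genes lie inside it.

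Members were also grouped by features that the naming rule did not use. Core subunits that host a small nucleolar RNA gene (30 of 77) had a median difference of -0.93 in ileum and -0.43 in colon, against -0.90 and -0.44 for those that do not. Members with a run of at least 8 C or T anywhere in the start window (21) had medians of -0.92 and -0.45, against -0.86 and -0.43 for the 40 without. Across core subunits the difference had a Spearman's rho with mean level of 0.145 in ileum and 0.243 in colon.

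Other genes of translation were read from lists on the same scale, beside the 28.0% of all named genes lower and 23.5% higher by 1.5-fold or more in ileum, and the 18.2% lower and 14.0% higher in colon. Of 8 genes listed with the elongation factors 3 were lower and 0 higher in the ileum, a count near that background, with a median of -0.52. The list includes Eef2k and Eef1e1, which are not elongation factors themselves. They were its only genes above 0 in the ileum, at 0.07 and 0.29, and the other 6 were below 0. In the colon 0 of 8 were lower and 1, Eef1e1 at 0.67, was higher, with a median of -0.31. Eef1g, a subunit of the factor that reloads elongation factor 1A, differed by -1.22 and -0.52, and Eef2, which moves the ribosome along the mRNA, by -0.49 and -0.57. Of 21 other genes known for a TOP, which include elongation factors, Fau and Gnb2l1, 11 were lower and 0 higher in the ileum (median -0.60), and 2 were lower and 0 higher in the colon (median -0.32). The histone chaperone gene Nap1l1 was the lowest of these in both tissues, at -1.25 and -0.74. Btf3, a subunit of a complex that meets the new peptide at the ribosome, was above 0 at 0.19 and 0.36.

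Initiation factors had medians nearer to 0 or above it. The 12 genes of eIF3, which holds the small subunit before initiation, had 2 lower and 0 higher in the ileum (median -0.28), and 0 lower and 1 higher in the colon (median 0.19). The 14 genes of eIF2, eIF2B and their partners had medians of 0.02 in ileum and 0.45 in colon. Of these, 1 was lower and 1 higher by 1.5-fold or more in the ileum, and 0 were lower and 5 higher in the colon. The 15 genes of eIF4, poly(A) binding and termination had medians of 0.16 and 0.22, with 2 lower and 4 higher in the ileum and 0 lower and 4 higher in the colon. Pabpc1, the main poly(A) binding protein and itself a TOP mRNA, was at -1.08 and -0.58. Gspt1, a translation termination factor whose entry also names Mir1945, was at 2.93 and 3.43. In the colon Gspt1 stands in several entries, and the value is that of the entry of highest mean. Genes of ribosome quality control (9) had medians of 0.24 and 0.16, with Eif6, which keeps the free large subunit from joining, at 1.2 and 0.78. Ribosome assembly factors had medians on either side of 0. Of 25, 7 were lower and 0 higher in the ileum with a median of -0.16, the lower count being at the 28.0% of all named genes, and 1 was lower and 8 were higher in the colon with a median of 0.47. Dkc1, which makes pseudouridine in rRNA, differed by -1.23 and -0.35, the nucleolar chaperone gene Npm1 by -1.12 and -0.67, and Rrp12, which in yeast helps to export the subunits, by 0.43 and 1.3. Genes of RNA polymerase I and rRNA transcription (15) had medians of -0.32 in ileum and 0.05 in colon.

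Among regulators of TOP mRNAs, Larp1 was the lowest in the ileum, at log2 FPKM 5.16 in Vil-Ogt KO and 5.86 in WT, and stood at 5.27 in Vil-Ogt KO and 5.47 in WT colon. Of 18 genes of mTORC1 and TOP control in the ileum 1 was lower and 4 were higher by 1.5-fold or more (median 0.21), the higher count being near the 23.5% of all named genes, and of 17 in the colon 0 were lower and 2 higher (median 0.15). Those higher included Rragd, a GTPase that brings mTORC1 to the lysosome, at 1.96 in ileum, and Ddit4, an inhibitor of mTORC1, at 1.03 in ileum and 0.88 in colon.

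Mitochondrial ribosomal proteins, which are made in the cytosol and serve the ribosome of the mitochondrion, had medians above those of the cytosolic genes. In the ileum 28 of 75 were lower and 1 higher by 1.5-fold or more, against 28.0% and 23.5% of all named genes. Their ileal median was -0.31, against -0.91 for the cytosolic genes. In the colon 3 of 75 were lower and 14 higher, against 18.2% and 14.0% of all named genes. The higher count there was near that share. Their colonic median was 0.10, against -0.42 for the cytosolic genes. The mitochondrial median thus lay on the other side of 0 from the cytosolic one in the colon.

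**Figure D4:**
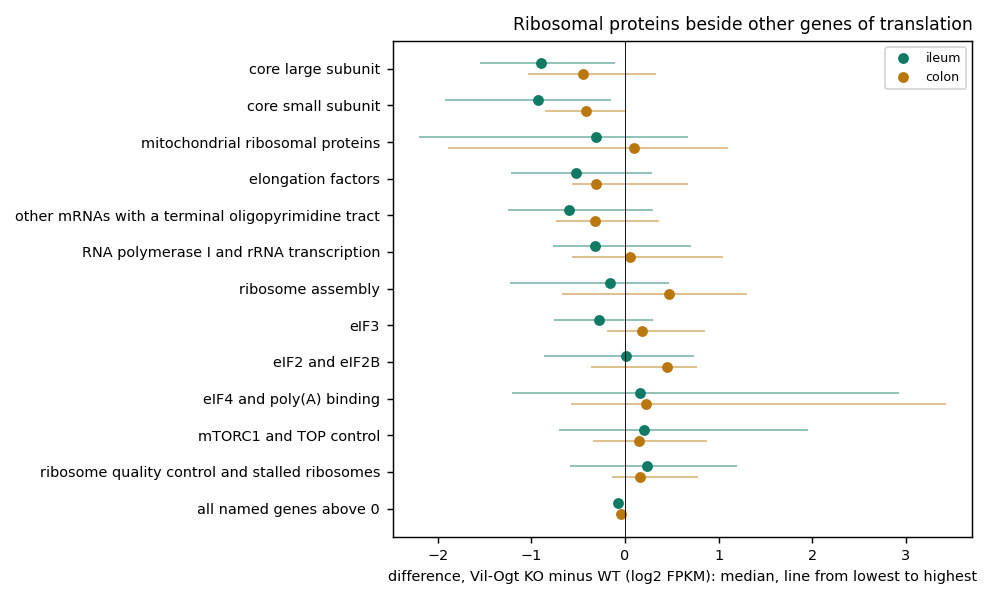
Median difference of Vil-Ogt KO minus WT in log2 FPKM (horizontal axis, points) for the ribosomal protein genes and other lists of translation genes, ileum above colon in each row, with lines from the lowest to the highest gene of a list (no line for all named genes). The core subunits have the lowest medians of the lists shown in both tissues, and ribosome assembly lies at -0.16 in ileum and 0.47 in colon.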

How the data were processed

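IEC RNA of 11 libraries was sequenced as single-end reads. According to the submitters' processing notes and the study's methods, the authors trimmed reads with Trimmomatic and mapped them with TopHat (version 1.0.0) and Bowtie to mm10. The processing notes also name Cufflinks. The deposited tables give log2 FPKM, 1 value per locus, genotype and tissue, normalized by the authors within a tissue. A value of -10 stands for 0 FPKM. Depth and spread per library are not analysed here, so that the precision of a value is unknown. The authors' log2 ratios, q-values and significance marks, also in the tables, were not used. An empty line in either table was passed over.

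Unnamed loci and genes listed at 0 in a genotype were set aside, and where several entries bore the same name, that of highest mean was used. For genes of the lists this also held where a symbol stood in several entries beside other names. Differences were Vil-Ogt KO minus WT, with values rounded to 0.01, and were counted at 1.5-fold (log2 0.58). The background was all named genes. Named genes were the 5 highest and 5 lowest members by difference and by WT level in a tissue, paralogs, the P stalk, Rpl5, Rpl11, well known subunits, ubiquitin fusions, members that share an entry, and the extremes of each list, of which only some are named. Values of a few single genes are not reported here, and they remain in the counts and medians. Rps4x, Rpl36a and Rpl7 beside their paralogs, Rpl13, Rpl27a, Rpl28, Rpl29, Rpl39, Rps15, Gnb2l1 and Epcam were added after their values were seen, as were list genes given in both tissues that are extreme in 1. Members and lists were chosen with earlier results of these data known. Locus starts were 1 less than the GENCODE vM21 start for 5069 named entries and equal to it for 710, counted over both tissues together. They were set to count from 1. Alternatives were centring, log2 of FPKM plus 1, other member sets, entries and folds, and a minimum of 10 FPKM. The steps were tested on simulated data. Versions were SciPy 1.17.1, pandas 2.3.3, NumPy 2.4.6, matplotlib 3.10.9 and Python 3.11.15.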

Additional observations from a re-analysis of the deposited data

How the results depend on the processing

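Under the alternatives run, the median difference of the members stayed between -0.93 and -0.84 in the ileum and between -0.45 and -0.38 in the colon, and that of ileum minus colon between -0.49 and -0.43. The subunits' median differences stayed within 0.1 of each other. At 2-fold in place of 1.5-fold, 29 members were lower in the ileum, 1 was lower in the colon, and 0 were higher in the ileum. At a smaller fold, a log2 difference of 0.32, 77 were lower in the ileum and 49 in the colon, against 38.7% and 30.4% of all named genes, and 2 were higher in the ileum and 4 in the colon, against 32.4% and 24.5%. With core subunits only, 0 were higher in either tissue. With entries of 1 gene name only, the large minus small subunit level was -0.34 in Vil-Ogt KO ileum, -0.30 in Vil-Ogt KO colon and -0.40 in WT colon. With entries that have a locus span of their own, an alternative chosen after seeing the data, it was 0.01 in Vil-Ogt KO colon, turned in sign, and -0.07 in WT colon, and 0 members were higher by 1.5-fold in either tissue, since Rps4y2 shares its span. The causes were not tested. Of the alternatives, rescaling to an equal sum over named genes was also chosen after seeing the data. No paired analysis was possible because the tables hold 1 value per genotype, and no library could be left out for the same reason.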
